A study of Mus musculus with 67 samples.

Results

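The proteasome subunit genes were taken as every row of the 3 count tables whose symbol starts with Psm, one letter from a to g and a digit. The rule found 50 genes among the 24411 rows of the driver and digest tables and 24421 rows of the LPS table. It takes in the 20S core genes (Psma, Psmb), the 19S genes (Psmc, Psmd), the activators (Psme), the inhibitor Psmf1 and the assembly chaperones (Psmg). It also takes in Psmc3ip, which is a recombination cofactor and not a subunit.

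The libraries came from mouse brain, and microglia are its resident macrophages. All mice were C57BL/6J, homozygous for the RiboTag allele, in which Cre recombinase attaches an HA tag to the ribosomal protein Rpl22, and all carried a Cre inserted at Cx3cr1 in place of one copy of that gene (genotypes CX3CR1CreER/WT RLP22HA/HA and CX3CR1Cre/WT RLP22HA/HA). Cx3cr1 is expressed by microglia and by other mononuclear phagocytes. An anti-HA antibody pulled tagged ribosomes and their RNA out of brain homogenate, an isotype IgG1 served as the antibody control, and the total extract before the antibody step was the input. The driver experiment held input, IgG and pull-down libraries of the inducible driver CX3CR1CreER with tamoxifen (3 of each), the same driver without tamoxifen (2 of each) and the constitutive driver CX3CR1Cre without tamoxifen (3 of each). The digest experiment used tamoxifen-treated CX3CR1CreER mice and held IgG (4), pull-down (3), cells sorted after a 20 min enzymatic digest at 37 °C (4) and cells sorted without it (4). Sorting kept cells positive for CD11b and intermediate for CD45 and left out those with GR1. The LPS experiment also used tamoxifen-treated CX3CR1CreER mice, 3 h after an injection of PBS (3) or LPS at 2.5 mg/kg (4), each with IgG, pull-down, sorted cells and a pull-down from sorted cells. Tamoxifen was given as 4 doses of 5 mg at 4 to 6 weeks of age, and the labels did not say whether the sorted cells of the LPS experiment had been digested. The design text describes replicates as individual mice and has sorting and pull-down done on one and the same mouse. Libraries of different preparations can therefore share a mouse, and the tests treated them as independent.

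The proteasome degrades proteins marked with ubiquitin. Its 20S core stacks outer rings of alpha subunits, which gate the entrance, on inner rings of beta subunits, of which Psmb6 (beta1), Psmb7 (beta2) and Psmb5 (beta5) carry the catalytic sites, and the 19S cap of ATPases and non-ATPase subunits recognises, unfolds and feeds in the substrate. Interferons induce the alternative catalytic subunits Psmb9 (beta1i), Psmb10 (beta2i) and Psmb8 (beta5i), which replace the standard ones in newly built particles called immunoproteasomes, and the PA28 activator made of Psme1 (alpha) and Psme2 (beta). Immunoproteasomes are abundant in immune cells and favour peptides that fit MHC class I molecules.

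The promoters of Psmb8, Psmb9 and Psme1 are shown because they had the largest differences between the inducible and the constitutive driver among the immunoproteasome and PA28 genes. Sequences are RefSeq windows of build GRCm38.p6 from 250 bases before to 50 bases after the start of the gene, 5′ to 3′ on the gene's strand, and differ in build from the mm9 counts. Capitals mark a match to a GAS-like motif (TTCNNNGAA) in Psmb8 at chr17:34197945-34198244 on the plus strand and to an ISRE-like motif (GAAA, any 2 bases, GAAA, here on the opposite strand) in Psme1 at chr14:55578244-55578543 on the plus strand. The Psmb9 window lies at chr17:34187281-34187580 on the minus strand and has no capitals, and it overlaps the window of Tap1, which pumps peptides to MHC class I.
Psmb8: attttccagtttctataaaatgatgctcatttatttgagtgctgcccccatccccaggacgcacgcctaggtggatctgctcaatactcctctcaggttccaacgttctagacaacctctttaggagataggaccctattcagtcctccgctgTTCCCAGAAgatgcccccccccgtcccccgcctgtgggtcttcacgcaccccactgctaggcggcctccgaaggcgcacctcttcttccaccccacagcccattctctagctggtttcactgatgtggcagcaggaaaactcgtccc
Psmb9: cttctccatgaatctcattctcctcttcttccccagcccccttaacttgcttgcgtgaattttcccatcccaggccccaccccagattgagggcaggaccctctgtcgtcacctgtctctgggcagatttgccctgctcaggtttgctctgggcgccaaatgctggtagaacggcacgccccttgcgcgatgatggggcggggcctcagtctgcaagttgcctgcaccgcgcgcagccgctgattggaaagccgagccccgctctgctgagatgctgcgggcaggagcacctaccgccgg
Psme1: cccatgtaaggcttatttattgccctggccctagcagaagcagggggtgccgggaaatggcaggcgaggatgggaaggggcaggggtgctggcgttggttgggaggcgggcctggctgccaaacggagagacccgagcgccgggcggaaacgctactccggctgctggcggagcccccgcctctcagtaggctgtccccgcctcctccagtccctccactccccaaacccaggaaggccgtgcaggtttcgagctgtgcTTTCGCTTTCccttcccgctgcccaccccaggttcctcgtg

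A window was given for 42 of the 50 members, 45 windows in all. Both strands of each window were searched for letters that resemble the sites of interferon-activated factors and of factors that drive the standard proteasome genes. The ISRE-like letters GAAA, any 2 bases, GAAA stood in 5 of 45 member windows (11.1%) and in 3.44% of all 32851 promoter windows. TTCNNNGAA stood in 3 member windows (6.67%) and in 8.3% of all windows. TGACNNNGC, which resembles the antioxidant response element, stood in 6 (13.3%) against 12.4%, and CCAAT in 15 (33.3%) against 37.4%. Of the 7 windows of the 6 immunoproteasome and PA28 genes, 1 held the ISRE-like letters and 1 held TTCNNNGAA. These matches describe letters and not bound sites.

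Library totals ran from 166851 to 3513317 reads over exons. Libraries of the no-tamoxifen pull-down (186099 to 219521) and of the LPS pull-down from sorted cells (166851 to 662404) were the shallowest groups. Levels are given as CPM, counts scaled to a common library size after TMM normalization, and differences as log2 fold changes ± SE. The fold changes are from the edgeR quasi-likelihood test. The SE is approximate, the size of the log2 fold change divided by the square root of the F statistic. A gene was called at a Benjamini-Hochberg adjusted p under 0.05 over all genes tested, and "higher", "rose", "lower" and "fell" are used of called genes. Where groups are said not to overlap, the share of all genes without overlap was not counted. Of the 50 members, 47 of 11868 genes passed the low-count filter in the driver experiment, 46 of 11529 in the digest experiment and 47 of 11444 in the LPS experiment. The testis form Psma8 (17, 31 and 24 reads in the driver, digest and LPS experiments) and the thymus form Psmb11 (31, 2 and 14 reads) failed in all 3. Psme2 failed in the driver (20 reads) and digest (65 reads) experiments and passed in the LPS experiment (224 reads), and Psmc3ip failed in the digest (97 reads) and LPS (95 reads) experiments. Psme2b is a near-identical copy of Psme2 and held 2297, 4128 and 6217 reads in the driver, digest and LPS experiments. Reads of the pair cannot be told apart by gene, so values printed for Psme2b stand for both. All members together took between 0.416 ± 0.00885% (SD, n = 4, IgG after LPS) and 0.738 ± 0.0269% (SD, n = 3, CX3CR1Cre pull-down) of the reads.

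The first comparison concerned the inducible driver with tamoxifen, whose pull-down was set against the input. The 3 immunoproteasome genes, Psme1 and Psme2b were all higher in the pull-down, whereas members of the standard particle went in both directions. Psmb8 stood at 18.9, 16.4 and 5.8 CPM in the inputs, at 18.02, 21.8 and 28.1 CPM in the IgG controls and at 660.1, 704.5 and 500.0 CPM in the pull-downs. Every pull-down lay far above every control. The difference from input was 5.57 ± 0.29 (adjusted p = 9.12e-19). Psmb9 had 11 reads in all 3 inputs (1.4, 2.98 and 2.23 CPM) and 142.6, 147.2 and 109.8 CPM in the pull-downs, a difference of 5.85 ± 0.40 (adjusted p = 3.05e-15). In bulk libraries such as these, fewer cells of a type and less RNA per cell cannot be told apart.

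Psmb10 had a clear level in whole brain already, at 203.9, 187.1 and 182.5 CPM in the inputs, and reached 810.4, 686.7 and 589.2 CPM in the pull-downs. The groups did not overlap, and the difference was 1.86 ± 0.19 (adjusted p = 1.46e-10). Psme1 went from 91.8, 84.96 and 62.9 CPM in the inputs to 545.8, 495 and 451.1 CPM (2.65 ± 0.23, adjusted p = 1.1e-12), and Psme2b went from 54.0, 57.4 and 58.5 CPM to 249.1, 252.7 and 235.9 CPM (2.12 ± 0.18, adjusted p = 7.01e-13). Set against IgG instead of input, the differences were 4.79 for Psmb8, 5.38 for Psmb9, 2.12 for Psmb10, 2.81 for Psme1 and 2.19 for Psme2b. The pull-down is shared by both comparisons.

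In all, 17 of 47 tested members were higher and 16 lower in the pull-down than in the input, when 64.2% of all genes tested were called (28.7% higher and 35.5% lower), so the number of called members was near the background. Against IgG, 15 were higher and 17 lower, with 66.1% of all genes called (30.8% higher and 35.3% lower). The median difference from input was -0.15 over the members and -0.28 over all genes. The 5 immunoproteasome and PA28 genes tested were all higher, with a median of 2.65. Among the 41 other subunit, chaperone and regulator genes tested, 12 were higher and 16 lower, with a median of -0.19. Scaled by total counts the split over all members was 10 higher and 23 lower, and with DESeq2 size factors 18 higher and 11 lower.

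The standard catalytic subunits gave no common direction in that pull-down. Psmb6 stood at 451.3, 395.7 and 282 CPM in the inputs and at 696.1, 622.8 and 644.6 CPM in the pull-downs, without overlap (0.80 ± 0.18, adjusted p = 0.000175, or 0.34 and 0.0786 with total-count scaling). Psmb5, the partner that Psmb8 replaces, stood at 44.9, 51.4 and 66.5 CPM in the inputs and at 33.4, 35.7 and 38.1 CPM in the pull-downs (-0.61 ± 0.26, adjusted p = 0.0397), a call that was lost with DESeq2 size factors (-0.47) and when any 1 of 5 libraries was left out (-0.32, adjusted p = 0.321, without input replicate 3). Psmb7 was at 54.0, 52.2 and 33.0 CPM in the inputs and 55.2, 44.6 and 39.1 CPM in the pull-downs, with a difference of 0.01 and an adjusted p of 0.967.

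The alpha ring had 5 of 7 members lower and none higher. Psma4, an alpha ring subunit, had 1, 0 and 2 reads in the 3 pull-downs against 66 reads in the inputs. The ratio of depth-scaled reads was 0.096 with a 95% interval of 0.0193 to 0.293, which covers counting error only. Psmc6, one of the ATPases that unfold the substrate, fell from 26.6, 27.6 and 22.8 CPM in the inputs to 1.28, 5.95 and 5.44 CPM (-2.57 ± 0.42, adjusted p = 2.58e-06), on 1, 4 and 5 reads. Psmd14, the cap enzyme that removes ubiquitin chains, fell from 126.1, 134.9 and 133.9 CPM to 30.8, 19.3 and 16.3 CPM (-2.57 ± 0.26, adjusted p = 8.02e-11). Neither Psmc6 nor Psmd14 overlapped between input and pull-down. The other lowest members were the lid subunit Psmd6 (-1.83 ± 0.28) and the activator PA200, Psme4 (-1.72 ± 0.52), the latter not called without 1 input library, replicate 3 (-0.98, adjusted p = 0.135).

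**Figure D1:**
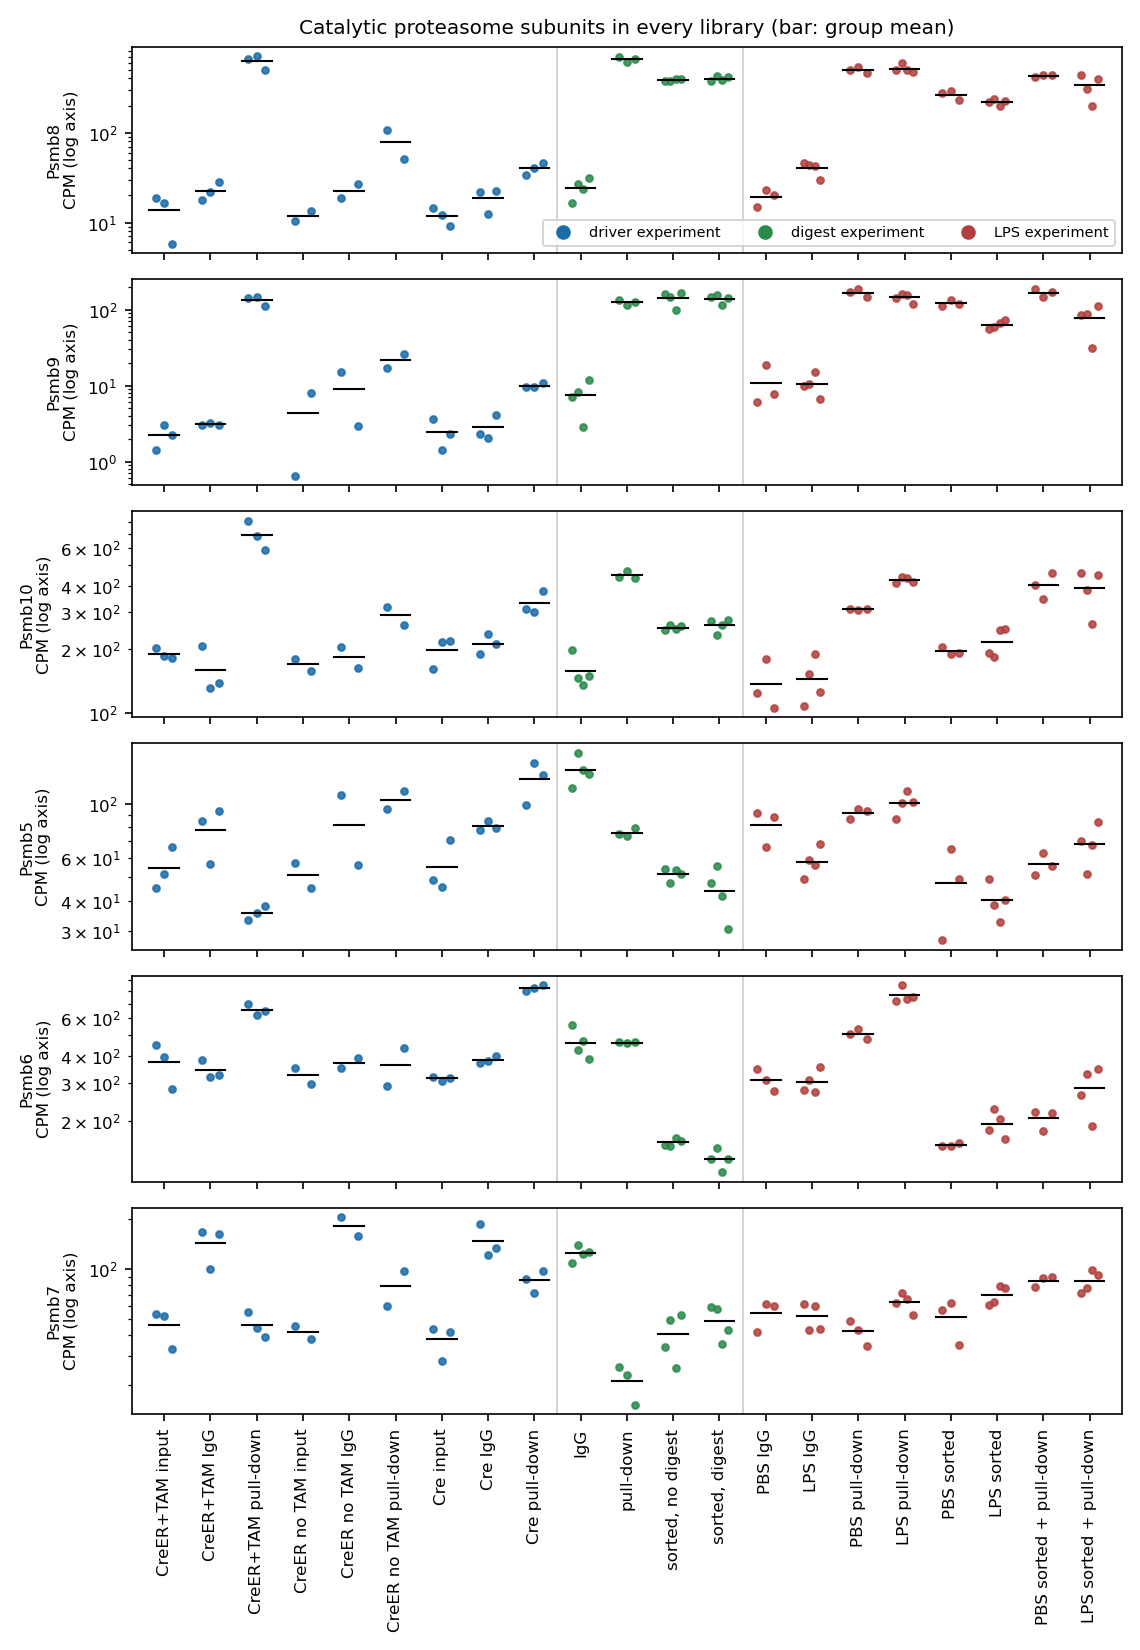
TMM-scaled CPM on a log axis for the 3 standard catalytic genes (Psmb6, Psmb7, Psmb5) and the 3 immunoproteasome genes (Psmb9, Psmb10, Psmb8), with 1 point per library, in each group of the 3 experiments. Psmb8 sits between 500.0 and 704.5 CPM in the 3 pull-downs of the inducible driver with tamoxifen and between 5.8 and 18.9 CPM in their inputs, while Psmb7 overlaps between the same groups.

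Most genes of the MHC class I route were higher in the same pull-down. Of all genes tested, 28.7% were higher than in the input and 35.5% lower. Of 10 tested genes of MHC class I processing, 8 were higher than in the input and 1 lower, with differences of 4.32 ± 0.29 for Tap1, 3.92 ± 0.30 for its partner Tap2 and 3.96 ± 0.21 for the light chain B2m. All 13 tested regulators of interferon responses and of the immunoproteasome were higher, with a median of 1.93, among them the transcription factor Irf1 (4.40 ± 0.33). Of 22 tested proteasome-related genes without a Psm symbol, 6 were higher (27.3%) and 8 lower (36.4%), near the shares of all genes. Pomp, the maturation factor of the core, was higher (1.52 ± 0.21), Usp14, a deubiquitinase of the cap, was lower (-3.31 ± 0.35), and Nfe2l1, a transcription factor of the standard proteasome genes, was not called (0.24, adjusted p = 0.252). The summed level of a list of microglial markers was 62780 to 82300 CPM in these pull-downs and 819.8 to 1122 CPM over all inputs, and its part in the immunoproteasome difference was not tested.

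The constitutive driver gave another pattern. In its pull-down 29 of 47 members were higher than in the input and 4 lower, when 34.9% of all genes were called (18.1% higher and 16.8% lower). The members' median was 0.79 and that of all genes -0.02. Of the 41 subunit, chaperone and regulator genes outside the immunoproteasome and PA28, 24 were higher than input and 4 lower, and 5 of 7 alpha ring and all 3 standard catalytic genes were among the higher. With total-count scaling the split was 21 higher and 7 lower, and without replicate 1 of the pull-down, which stood apart in markers of other brain cells, it was 26 higher and 4 lower. Leaving out any 1 library gave 26 to 30 called members against 33.

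The IgG controls of the constitutive driver gave a more divided picture, in a test added after seeing the data. Against IgG 21 members were higher and 8 lower, with 38.8% of all genes called (20.5% higher and 18.3% lower) and a members' median of 0.38, and the split was 10 and 10 with total-count scaling. Of the alpha ring, 1 gene was higher than IgG and 3 were lower, Psma6 (-2.16 ± 0.22), Psma4 (-1.63 ± 0.32) and Psma1 (-1.18 ± 0.25). The other lower members were Psme4 (-2.18 ± 0.60), Psmd11 (-2.08 ± 0.34), Psmc6 (-1.26 ± 0.26), Psmb7 (-0.80 ± 0.23) and Psmd14 (-0.65 ± 0.23), of which Psme4 (-1.56, adjusted p = 0.0998), Psmb7 and Psmd14 (-0.38, adjusted p = 0.251) lost their calls without IgG replicate 1. The members highest above IgG were the lid subunit Psmd8 (1.89 ± 0.20), Psmb9 (1.69 ± 0.59), the core chaperone Psmg3 (1.69 ± 0.25), Psmd13 (1.51 ± 0.22) and the structural beta subunit Psmb2 (1.24 ± 0.34, lost without pull-down replicate 3).

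Psmb5 stood at 48.4, 45.5 and 70.6 CPM in the inputs of the constitutive driver and at 99.1, 147.2 and 131.2 CPM in its pull-downs (1.20 ± 0.23, adjusted p = 8.35e-05). Psmb6 went from 322.2, 306.5 and 318.8 CPM to 798, 824.5 and 847.8 CPM (1.38 ± 0.18, adjusted p = 2.85e-07), and Psmb7 from 43.6, 28.2 and 42.1 CPM to 87.1, 72.4 and 98.2 CPM (1.18 ± 0.24, adjusted p = 0.00021). None of the 3 catalytic genes overlapped between input and pull-down, but IgG held more Psmb7 than either, at 188.6, 122.0 and 133.7 CPM (pull-down over IgG -0.80, adjusted p = 0.00601, or -0.58 and 0.0834 without IgG replicate 1). Psmb6 was higher than IgG (1.10 ± 0.18, adjusted p = 8.21e-06), and so was Psmb5 (0.64 ± 0.23, adjusted p = 0.0266), a call lost with other scalings (0.54 with DESeq2 size factors) and without any 1 of 4 libraries. The ubiquitin receptor Psmd4 rose from 187.7, 150.7 and 108.2 CPM to 450.1, 453.6 and 498 CPM (1.65 ± 0.19), and the lid subunit Psmd13 from 194.9, 173.7 and 107 CPM to 491.1, 495.8 and 484.6 CPM (1.63 ± 0.21). The 4 lower members were Psme4 (-2.44 ± 0.52), Psmd14 (-1.03 ± 0.22), the cap chaperone Psmd5 (-0.89 ± 0.30, lost without any 1 of 3 libraries) and Psmd6 (-0.86 ± 0.24).

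The immunoproteasome genes were also higher in the constitutive pull-down than in its input, by less. Psmb8 stood at 14.4, 12.2 and 9.11 CPM in the inputs, at 21.7, 12.4 and 22.6 CPM in the IgG controls and at 34.1, 40.6 and 45.5 CPM in the pull-downs (1.74 ± 0.30 over input, adjusted p = 2.16e-05). Psmb9 stood at 3.59, 1.41 and 2.28 CPM in the inputs and at 9.47, 9.55 and 10.7 CPM in the pull-downs (2.02 ± 0.50, adjusted p = 0.00169). The pull-downs did not overlap with the inputs for either gene. The gene Psme2b differed by 1.25 ± 0.18, Psme1 by 0.75 ± 0.22 and Psmb10 by 0.73 ± 0.19, all called, of which Psme1 was lost with total-count scaling (0.49) and without either of 2 inputs or pull-down replicate 3. Against IgG, Psmb8 (1.00 ± 0.32, adjusted p = 0.0116), Psmb9, Psmb10 (0.64 ± 0.19) and Psme2b (0.77 ± 0.19) were higher and Psme1 was not called (0.36). With total-count scaling Psmb8 (0.72, adjusted p = 0.0706), Psmb9 (1.41, adjusted p = 0.0605) and Psmb10 (0.35, adjusted p = 0.14) lost these calls, as they did without single libraries (Psmb8 at 0.84, adjusted p = 0.0583, without IgG replicate 2). In these 3 pull-downs the microglial markers summed to 2559 to 6214 CPM and the neuronal markers to 4436 to 5855 CPM, against 4195 to 5153 CPM of neuronal markers over all inputs and 1088 to 1375 CPM in the inducible pull-downs. Their part in the differences between drivers was not tested.

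Set directly against each other, the pull-downs of the constitutive and the inducible driver differed in opposite directions for the immunoproteasome and the standard genes. The inducible mice in this contrast had tamoxifen and the constitutive mice had none, so driver and tamoxifen cannot be told apart. The 5 immunoproteasome and PA28 genes tested were all lower with the constitutive driver, with log2 differences of -3.96 ± 0.26 for Psmb8, -3.74 ± 0.34 for Psmb9, -1.97 ± 0.22 for Psme1, -1.09 ± 0.17 for Psme2b and -1.07 ± 0.19 for Psmb10. Of the 41 other proteasome genes, 23 were higher and none lower. All 7 alpha ring genes were higher, with a median of 1.08. Over all 47 members this made 23 higher and 5 lower, with 55.7% of all genes called (30.2% higher and 25.6% lower).

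Psmc6 stood at 36.6, 49.3 and 31.2 CPM with the constitutive driver, far above the 1.28, 5.95 and 5.44 CPM with the inducible driver (3.18 ± 0.41, adjusted p = 2.49e-08). The IgG controls of the constitutive driver held still more, at 113.2, 82.7 and 83.3 CPM of Psmc6. Psma4 had 40 reads against 3, and the depth-scaled ratio of the inducible to the constitutive driver was 0.125 with a 95% interval of 0.0248 to 0.393. Psmb5 was higher by 1.81 ± 0.25 and Psmb7 by 0.89 ± 0.26, while Psmb6 differed by 0.33 with an adjusted p of 0.106. The alpha ring gene Psma1 was higher by 1.63 ± 0.32 and Psmd14 by 1.51 ± 0.27. After the difference between the inputs was subtracted, 18 members were higher (11 with DESeq2 size factors or the DESeq2 test, 12 on the compared groups alone and 26 with total counts) and 5 lower, with 43.6% of all genes called (23.9% higher and 19.7% lower), and the 5 lower were again Psmb8, Psmb9, Psmb10, Psme1 and Psme2b. Without 1 library, input replicate 2 of the inducible driver, 15 members were called in that contrast.

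Psmb8 was higher than input in the 2 pull-downs from CX3CR1CreER mice without tamoxifen, at 107.7 and 51.4 CPM (25 and 10 reads) against 10.3 and 13.3 CPM in the inputs (2.77 ± 0.44, adjusted p = 2.27e-05). Psmb9 rested on 4 and 5 reads in these pull-downs (2.28 ± 0.75, adjusted p = 0.0416, or 0.0513 with a block on the replicate number). Psmb10 differed by 0.78 ± 0.26, just inside the threshold at an adjusted p of 0.0418. It was not called without the low-count filter (0.685, adjusted p = 0.115). Its call was also lost without any single library of the compared groups (0.582 without pull-down replicate 1). That of Psmb9 was lost without input replicate 1 (1.387), pull-down replicate 1 (2.518) or pull-down replicate 2 (2.002). Psmb8 was not called without pull-down replicate 1 (2.07, adjusted p = 0.0653). Psme1 (0.59, adjusted p = 0.288) and Psme2b (0.65, adjusted p = 0.125) were not called. Over all members 8 were higher and none lower, with 10.9% of all genes called (6.44% higher and 4.46% lower), and the others higher were the lid subunit Psmd11, Psma4, Psmc6 (adjusted p = 0.0537 with the block), Psmd3 and Psmd4. None of these 5 was called against IgG, where Psmc6 stood at 82.9 and 87.0 CPM against 47.4 and 30.8 CPM in the pull-downs, and Psma4 at 39.1 and 38.3 CPM against 38.8 and 41.1 CPM. Against IgG, again in a test added after seeing the data, Psmb8 (1.88 ± 0.44, adjusted p = 0.00379) and Psmd13 (0.95 ± 0.29) were higher, and Psmg4, Psma6, Psma1, Psmb7 and Psma2 were lower, with 8.13% of all genes called (5.01% higher and 3.13% lower). Psmb8 was not called against IgG without IgG replicate 1 (1.62, adjusted p = 0.0628) or pull-down replicate 1 (1.18, adjusted p = 0.377), and without the latter edgeR called no member. Without pull-down replicate 2 it called 3. Against input, leaving out 1 library gave 4 called members without either input, 1 without pull-down replicate 1 and 4 without pull-down replicate 2, the lone library then being assumed to vary like the other groups. Microglial markers summed to 12510 to 14620 CPM and neutrophil and monocyte markers to 521.2 to 544.5 CPM in these 2 pull-downs, and the part of either in the higher Psmb8 was not tested.

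The share of immunoproteasome reads puts the catalytic genes of each library on 1 axis. It is the reads of Psmb8, Psmb9 and Psmb10 as a percent of the reads of these genes plus Psmb5, Psmb6 and Psmb7. Reads were not divided by gene length, so the share compares libraries and says nothing of the ratio of the proteins. In the inducible driver it was 28.96, 29.25 and 33.31% in the inputs, 26.38, 24.68 and 22.44% in the IgG controls and 67.27, 68.63 and 62.42% in the pull-downs. In the constitutive driver it was 30.14, 37.74 and 34.82% in the inputs, 25.03, 29.88 and 28.02% in the IgG controls and 26.53, 25.16 and 28.79% in the pull-downs. The pull-downs stood above their inputs in the inducible driver and below them in the constitutive one. The constitutive pull-downs lay within the range of their IgG controls. Without Psmb10 and Psmb7 the order in the constitutive driver turned, with mean shares of 3.73% in the inputs and 4.99% in the pull-downs. Without tamoxifen the pull-downs stood at 49.76% (exact 95% interval 42.75 to 56.77%) and 34.38% (27.69 to 41.56%). These intervals cover counting error only.

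**Figure D2:**
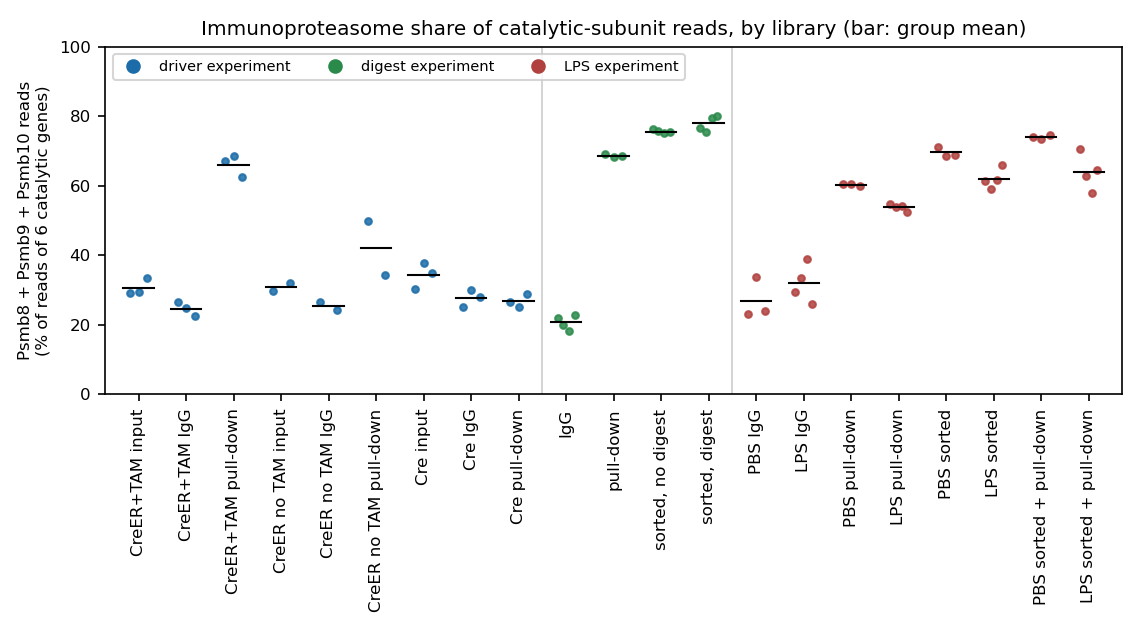
Reads of Psmb8, Psmb9 and Psmb10 as a percent of the reads of all 6 catalytic genes, on a linear axis, with 1 point per library in each group. Pull-downs of the inducible driver with tamoxifen and all sorted-cell groups lie above 50%, and inputs, IgG controls and pull-downs of the constitutive driver lie below 40%.

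The second question was how the preparation of microglia, by pull-down or by sorting, bears on the same genes. In the digest experiment the pull-down again held far more immunoproteasome and PA28 reads than IgG. Psmb8 stood at 16.4, 26.8, 23.3 and 31.0 CPM in IgG and at 696.1, 613.3 and 652.8 CPM in the pull-downs (4.77 ± 0.16, adjusted p = 1.23e-26), and Psmb9 at 7.02, 8.34, 2.83 and 11.8 CPM and at 135.7, 114.5 and 124.4 CPM (4.14 ± 0.24, adjusted p = 5.41e-18). Psme2b was higher by 2.52 ± 0.14, Psme1 by 2.34 ± 0.14 and Psmb10 by 1.51 ± 0.13. None of these genes overlapped between pull-down and IgG. In all, 9 of 46 members were higher and 23 lower than in IgG, with 74.5% of all genes called (26.7% higher and 47.8% lower). Fitted on these groups alone, the split was 16 higher and 13 lower, and the median of all genes moved from -0.47 to -0.09.

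In the fit of all groups, the 7 alpha ring genes were all lower in that pull-down than in IgG, with a median of -1.59. The smallest of these falls was -0.37. Fitted on the compared groups alone, the median of all genes moved from -0.47 to -0.09, so the smallest falls may depend on the fit. Psma4 stood at 4.68, 39.9, 29.7 and 36.9 CPM in IgG and at 2.28, 1.87 and 2.55 CPM in the pull-downs (-3.57 ± 0.57, adjusted p = 1.38e-05), with IgG replicate 1 nearest to the pull-downs. The ATPase Psmc6 differed by -3.32 ± 0.45, the alpha ring gene Psma6 by -2.62 ± 0.23 and Psmb7 by -2.55 ± 0.22. Psmb7 stood at 108.4, 139.5, 123.8 and 126.9 CPM in IgG and at 25.8, 23.0 and 15.3 CPM in the pull-downs. The digest and LPS experiments held no inputs, so a gene low in the pull-down and a gene high in IgG cannot be told apart there. In the inducible driver with tamoxifen, the alpha ring median was -0.79 against input and -1.59 against IgG. Across the 3 experiments, which share no library, 5 members were lower in pull-down than in IgG each time (Psma1, Psma4, Psma6, Psmc6 and Psmd14) of 25 that were lower in any, and 8 were higher each time (Psmb8, Psmb9, Psmb10, Psme1, Psme2b, Psmd8, Psmg3 and Psmg4) of 20 that were higher in any. As shares of the 46 members tested in each, these were 10.9% lower and 17.4% higher each time, against 25.4% and 23% of 10535 genes, so neither share exceeded that of all genes. Psmg4 under PBS was lost with DESeq2 size factors (0.38, adjusted p = 0.107) and the DESeq2 test (0.37, adjusted p = 0.142). Psmd8, Psmg3 and Psmg4 were named after their values were seen.

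Under PBS in the LPS experiment, all 6 immunoproteasome and PA28 rows, Psme2 included, were higher in pull-down than in IgG. Psme2 and Psme2b, whose reads cannot be told apart by gene, are separate rows in that count and not independent of each other. Psmb8 differed by 4.71 ± 0.23, Psmb9 by 4.04 ± 0.26, Psme2b by 3.13 ± 0.19, Psme1 by 2.61 ± 0.20, Psme2 by 2.50 ± 0.52 and Psmb10 by 1.19 ± 0.19. Over all members 20 were higher and 7 lower, with 65% of all genes called (33% higher and 32% lower). That split turned with the scaling, to 11 higher and 21 lower with DESeq2 size factors, 14 and 18 with total counts and 12 and 20 with the DESeq2 test, as the median of all genes moved from -0.02 to between -0.53 and -0.45. The largest falls were in Psma1 (-2.07 ± 0.25), Psma6 (-1.85 ± 0.27), Psmc6 (-1.85 ± 0.32), Psma4 (-1.29 ± 0.40) and Psmd14 (-1.04 ± 0.40), of which Psma4 and Psmd14 were lost without single libraries (Psmd14 at -0.29, adjusted p = 0.488, without PBS IgG replicate 3).

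Sorted cells differed from the pull-down in both directions. Psmc6 stood at 2.28, 4.98 and 1.28 CPM in the digest-experiment pull-downs and at 69.7, 65.5, 74.6 and 68.6 CPM in cells sorted after digestion (4.54 ± 0.40, adjusted p = 1.31e-10). Psma4 went from 2.28, 1.87 and 2.55 CPM to 30.0, 26.3, 23.4 and 29.6 CPM (3.55 ± 0.58, adjusted p = 1.76e-05), and Psme4 from 6.07, 7.46 and 5.74 CPM to 42.9, 62.8, 51.2 and 45.8 CPM (2.97 ± 0.31, adjusted p = 1.38e-10). For these 3 genes every sorted library lay above every pull-down. Psma1 went from 15.2, 23.0 and 12.1 CPM to 84.7, 71.6, 78.1 and 91.5 CPM (2.26 ± 0.30), and Psma6 was higher by 1.97 ± 0.25.

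Lower in sorted cells was Psmb6, at 464.1, 459.1 and 462.7 CPM in the pull-downs and 134, 151.3, 116.3 and 133.5 CPM after sorting with digestion (-1.78 ± 0.14, adjusted p = 6.76e-15). The core chaperone Psmg4 stood at 106.2, 105.7 and 91.9 CPM in the pull-downs and 21.4, 17.6, 18.2 and 22.9 CPM in the sorted cells (-2.35 ± 0.19, adjusted p = 3.13e-14). The cap scaffold Psmd2 (-1.58 ± 0.19), the ATPase Psmc3 (-1.41 ± 0.14) and the structural beta subunit Psmb4 (-1.39 ± 0.13) were also lower. Of the other standard catalytic genes Psmb5 was lower (-0.78 ± 0.17) and Psmb7 higher (1.20 ± 0.24). All 4 structural beta genes were lower, with a median of -1.27, whereas 4 of 7 alpha ring genes were higher and 1 lower, with a median of 0.64. In all 15 of 46 members were higher and 23 lower, with 72.8% of all genes called (31.6% higher and 41.1% lower).

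Of the immunoproteasome genes, Psmb8 and Psmb10 were lower in sorted cells than in the pull-down. Psmb8 stood at 377.2, 420.8, 381 and 413.7 CPM after sorting with digestion, below the 613.3 to 696.1 CPM of the pull-downs (-0.72 ± 0.13, adjusted p = 3.95e-06). Psmb10 went from 441.3, 470.3 and 433.3 CPM in the pull-downs to 272.2, 235.1, 260.3 and 276.5 CPM (-0.78 ± 0.13), and Psme2b was lower as well (-0.46 ± 0.13). Psmb9, at 144.7, 154, 115.4 and 143 CPM against 114.5 to 135.7 CPM in the pull-downs, overlapped and was not called (0.16). As a share of catalytic reads the immunoproteasome genes took 69.27, 68.32 and 68.48% in the pull-downs and 78.0 ± 2.26% (SD, n = 4) in the sorted cells. The share was thus higher in sorted cells although the levels of Psmb8 and Psmb10 were lower, and Psmb5 and Psmb6 were lower there too.

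The digest itself was tested between the sorted groups. None of the 46 members was called between cells sorted with and without it by edgeR or by DESeq2, 2 had an unadjusted p under 0.05 (Psma6 and Psmg4), and 0.139% of all genes were called (0.121% higher and 0.0173% lower). Member differences ran from -0.45 to 0.43 with a median of 0.02. Psmb8 differed by 0.05 ± 0.12, Psmb9 by -0.03 ± 0.15, Psmb10 by 0.04 ± 0.12 and Psme1 by 0.06 ± 0.12. Psmb8 stood at 374.3, 374.8, 398.2 and 396.7 CPM without the digest, overlapping the 377.2 to 420.8 CPM seen with it. Cells sorted without the digest had 14 members higher and 23 lower than the same pull-downs, with 72.8% of all genes called, or 17 and 18 with total-count scaling.

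The LPS experiment gave a further set of sorted cells and pull-downs from other libraries. Under PBS, Psme4 stood at 4.38, 4.6 and 6.88 CPM in the pull-downs and 68.8, 105.2 and 68.7 CPM in the sorted cells (3.90 ± 0.31, adjusted p = 1.57e-17). Psmc6 was higher in sorted cells by 3.11 ± 0.30, Psma1 by 3.02 ± 0.24 and Psma4 by 2.18 ± 0.39, and Psmb6 was lower (-1.70 ± 0.18). Psmb8 (-0.91 ± 0.18), Psmb10 (-0.65 ± 0.19) and Psmb9 (-0.48 ± 0.20, adjusted p = 0.0255) were all lower in sorted cells, Psmb9 losing its call without PBS pull-down replicate 2 (-0.33, adjusted p = 0.175), PBS sorted replicate 1 (adjusted p = 0.097) or PBS sorted replicate 3 (adjusted p = 0.0642). In all 16 of 47 members were higher and 21 lower, with 71.9% of all genes called, and without the low-count filter 8 were higher and 27 lower. Of the 46 members tested in both experiments, 13 were higher in sorted cells than in the pull-down in each and 20 were lower in each, of 18 and 24 that were so in either. These were 28.3% and 43.5% of the members, against 27.4% and 34.5% of 10930 genes.

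Markers of other cells moved with the preparation. Neuronal markers summed to 836.4 to 919.4 CPM in the digest-experiment pull-downs and 0.953 to 11.8 CPM in the sorted cells, and those of border macrophages to 702.9 to 797 CPM and 2.6 to 20.3 CPM. The microglial markers were alike, at 50440 to 55330 CPM in the pull-downs and 53570 to 59670 CPM after sorting with digestion. Their part in the member differences was not tested.

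The LPS experiment also held pull-downs made from sorted cells. Compared with sorted cells under PBS, 13 of 47 members were higher in it and 4 lower, with 31.9% of all genes called (16.6% higher and 15.2% lower), or 8 and 8 with total-count scaling. Psmb4 stood at 121, 126 and 112.1 CPM in sorted cells and 328.4, 377.5 and 344 CPM in their pull-down (1.54 ± 0.18, adjusted p = 6.5e-10). Psme4 went the other way, from 68.8, 105.2 and 68.7 CPM to 23.5, 37.0 and 27.0 CPM (-1.52 ± 0.30, adjusted p = 5.21e-05), and stayed above the 4.38 to 6.88 CPM of the whole-brain pull-down. Neither gene overlapped between sorted cells and their pull-down. Psma1, at 143.9, 113.5 and 133.2 CPM in sorted cells, was at 123.2, 107.3 and 131.5 CPM in their pull-down, and Psmc6 at 80.7, 72.0 and 64.5 CPM in sorted cells was at 60.6, 37.0 and 57.3 CPM, while the whole-brain pull-downs held 20.5, 12.48 and 15.3 CPM of Psma1 and 8.04, 8.54 and 8.41 CPM of Psmc6. Psmb10 (1.04 ± 0.19), Psmb8 (0.70 ± 0.18) and Psme1 (0.66 ± 0.18) were higher in the pull-down from sorted cells and Psme2b was lower (-0.85 ± 0.18). Psme1 lost its call with total-count scaling (0.402, adjusted p = 0.0588). Psmb9 was not called (0.492, adjusted p = 0.0673), but was with DESeq2 size factors (0.568, adjusted p = 0.0305). Microglial markers summed to 53250 to 53970 CPM in sorted cells and 103600 to 111800 CPM in their pull-down. Neuronal markers summed to 55.01 to 89.7 CPM and 236.9 to 379.4 CPM. Their part was not tested.

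**Figure D3:**
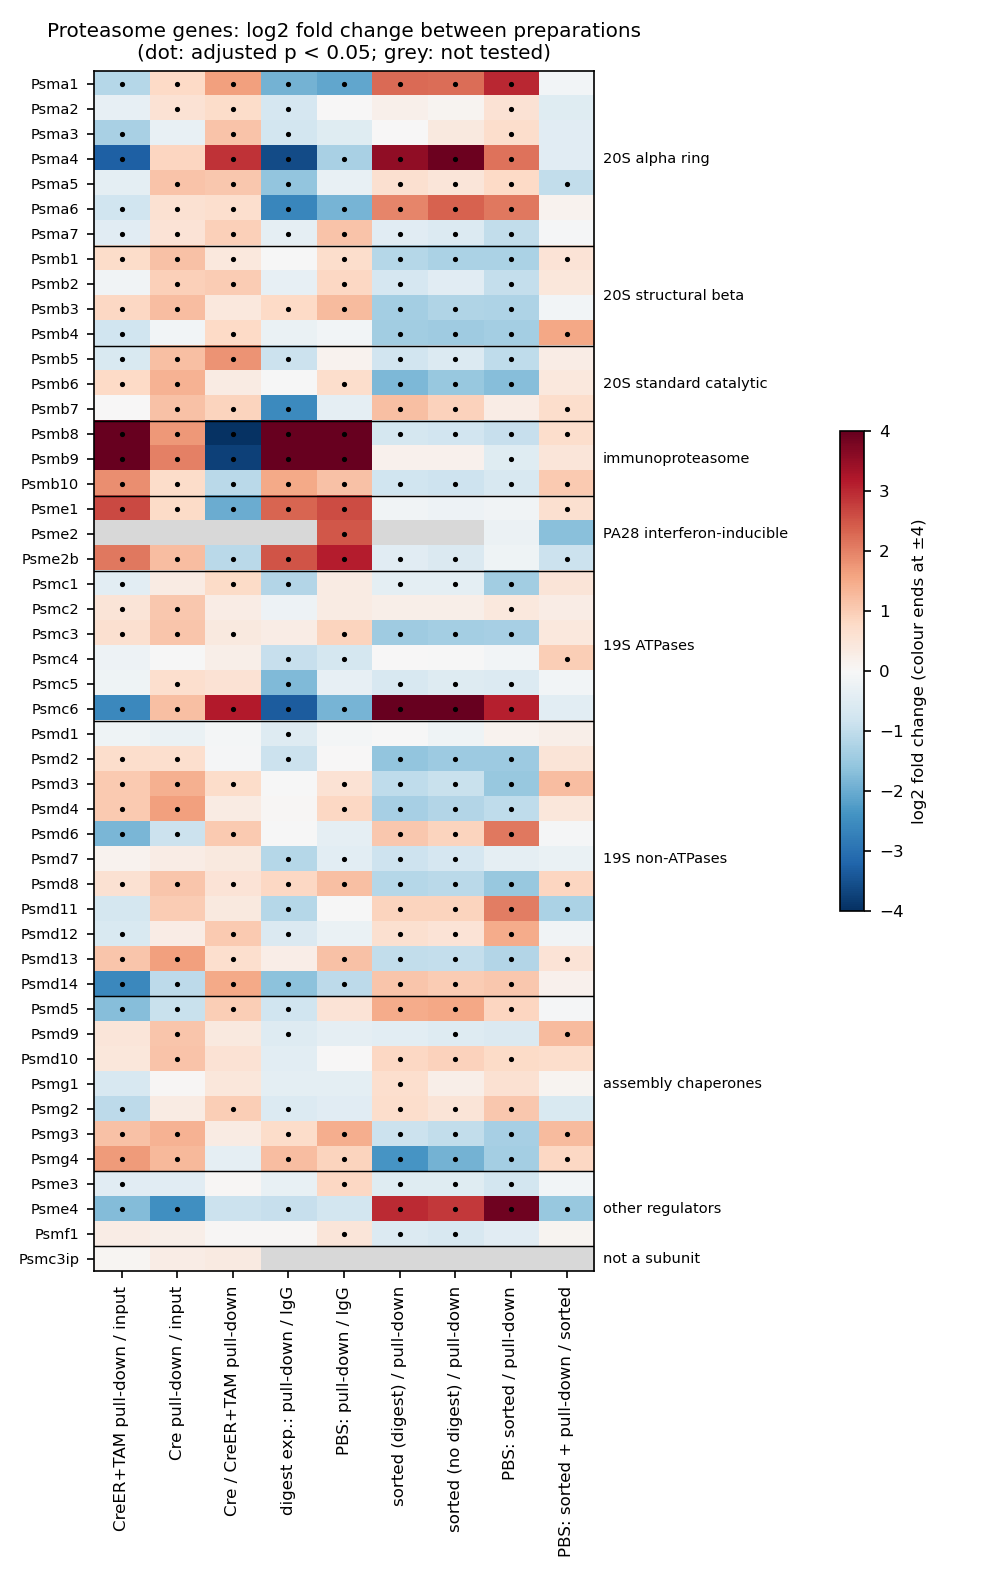
Log2 fold changes of the tested members, ordered by their role, with 1 column per comparison and color giving the direction and size. Immunoproteasome and PA28 genes are higher than input or IgG in the pull-downs of the inducible driver with tamoxifen and lower with the constitutive than with the inducible driver, and the members' split of 20 higher and 7 lower in the PBS pull-down against IgG turned to 11 and 21 or 14 and 18 under other scalings.

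The third question was the response to LPS, a bacterial cell wall component that activates microglia, 3 h after injection. The nuclear activator PA28 gamma (Psme3) and cap subunits such as Psmd7 and Psmd12 rose in the microglial preparations, Psmb8 was called in none of them, and Psmb9 fell in sorted cells and their pull-down. In the pull-down 13 of 47 members rose and none fell, when 26.5% of all genes were called (15.5% higher and 11% lower). Members moved by a median of 0.31 and all genes by -0.03. In sorted cells 12 rose and 1 fell, with 34.5% of all genes called (17% higher and 17.6% lower) and a members' median of 0.31. In pull-downs from sorted cells 11 rose and 1 fell, with 25.6% called (12.7% higher and 12.9% lower) and a median of 0.35. With total-count scaling the pull-down had 8 higher and 1 lower. Without LPS replicate 3 the sorted cells had 7 called members, and the pull-downs from sorted cells had 6 without LPS replicate 4, 4 without PBS replicate 1 and 5 without PBS replicate 3.

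Psme3 stood at 83.3, 77.5 and 69.6 CPM in the PBS pull-downs and 185.5, 206.2, 213.2 and 189.1 CPM after LPS, without overlap (1.37 ± 0.18, adjusted p = 7.65e-09). In sorted cells it stood at 66.9, 36.0 and 30.8 CPM under PBS and 66.5, 93.3, 116.7 and 121.2 CPM after LPS (1.13 ± 0.22, adjusted p = 2.88e-05), where PBS replicate 1 lay just above the lowest LPS library. In pull-downs from sorted cells it stood at 33.2, 44.4 and 50.6 CPM and 79.8, 66.9, 73.8 and 91.2 CPM (0.91 ± 0.28, adjusted p = 0.0108), a call lost without PBS replicate 1 (0.67, adjusted p = 0.137) or without LPS replicate 4 (0.81, adjusted p = 0.0579). In IgG the levels were 36.5, 56.8 and 38.1 CPM under PBS and 51.1, 60.9, 51.8 and 37.0 CPM after LPS, which overlapped. The LPS change in the pull-down exceeded that in IgG by 1.15 ± 0.28 (adjusted p = 0.0041).

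Psmd7, a lid subunit, stood at 90.6, 103.8 and 80.3 CPM in the PBS pull-downs and 163.1, 196.9, 188.7 and 180.4 CPM after LPS (0.99 ± 0.17, adjusted p = 2.86e-06). In sorted cells it went from 72.4, 66.4 and 77.1 CPM to 89.9, 81.7, 125.1 and 131.9 CPM (0.60 ± 0.19, adjusted p = 0.0114), and in pull-downs from sorted cells from 66.5, 51.8 and 59.0 CPM to 87.2, 92.6, 104.6 and 116.3 CPM (0.74 ± 0.24, adjusted p = 0.0157). The LPS libraries lay above the PBS libraries in each of the 3 preparations. Psmd12, another lid subunit, went from 27.8, 40.1 and 28.3 CPM to 52.7, 43.5, 65.9 and 58.3 CPM in the pull-down (0.76 ± 0.20, adjusted p = 0.00259), and rose by 0.85 ± 0.19 in sorted cells and 0.68 ± 0.22 in their pull-down. Psme3, Psmd7 and Psmd12 were the 3 members called higher in all 3 microglial preparations, of 23 called higher in any, or 6.38% of members against 8.43% of all genes. The 3 preparations can share mice. The calls in pull-downs from sorted cells rested on few libraries: Psmd7 was not called without LPS replicate 4 (adjusted p = 0.0948) or PBS replicate 3 (adjusted p = 0.0956), and Psmd12 not without LPS replicate 4 (adjusted p = 0.0701), PBS replicate 1 (adjusted p = 0.112) or PBS replicate 3 (adjusted p = 0.0838). In sorted cells Psmd7 was not called without LPS replicate 3 (adjusted p = 0.0502) or LPS replicate 4 (adjusted p = 0.074).

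By role, 5 of 11 non-ATPase cap genes rose in the pull-down (median 0.48) and 5 of 11 in sorted cells (median 0.58), none of them falling, and 3 of 6 ATPases rose in each (medians 0.37 and 0.49), when 15.5% and 17% of all genes rose. In pull-downs from sorted cells 4 of 11 non-ATPase genes and 1 of 6 ATPases rose, when 12.7% of all genes did. In the pull-down the ATPase Psmc5 rose by 0.81 ± 0.19 and the lid subunit Psmd3 by 0.80 ± 0.16, and in sorted cells Psmd3 rose by 0.70 ± 0.19 and the ATPase Psmc1 by 0.66 ± 0.19. None of the 7 assembly chaperones tested was called in any of the 3 preparations. No alpha ring gene was called in the pull-down, and in sorted cells Psma6 rose from 79.8, 60.9 and 60.3 CPM to 134.9, 116.6, 146.1 and 135.4 CPM (0.98 ± 0.22, adjusted p = 0.000252). Psma6 stood at 15.3, 12.48 and 19.1 CPM in the PBS pull-downs and 15.5, 16.8, 19.01 and 28.1 CPM after LPS, and the difference between the responses of sorted cells and pull-down was 0.71 ± 0.37 (adjusted p = 0.35). In pull-downs from sorted cells the largest rises were in Psmd11 (1.38 ± 0.41), the structural beta gene Psmb2 (1.19 ± 0.31) and the alpha ring gene Psma5 (1.02 ± 0.32). Psmd11 rested on 5, 3 and 12 reads under PBS, and the calls of Psmd11 (1.07, adjusted p = 0.0954) and Psma5 (0.79, adjusted p = 0.129) were lost without PBS replicate 1.

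**Figure D4:**
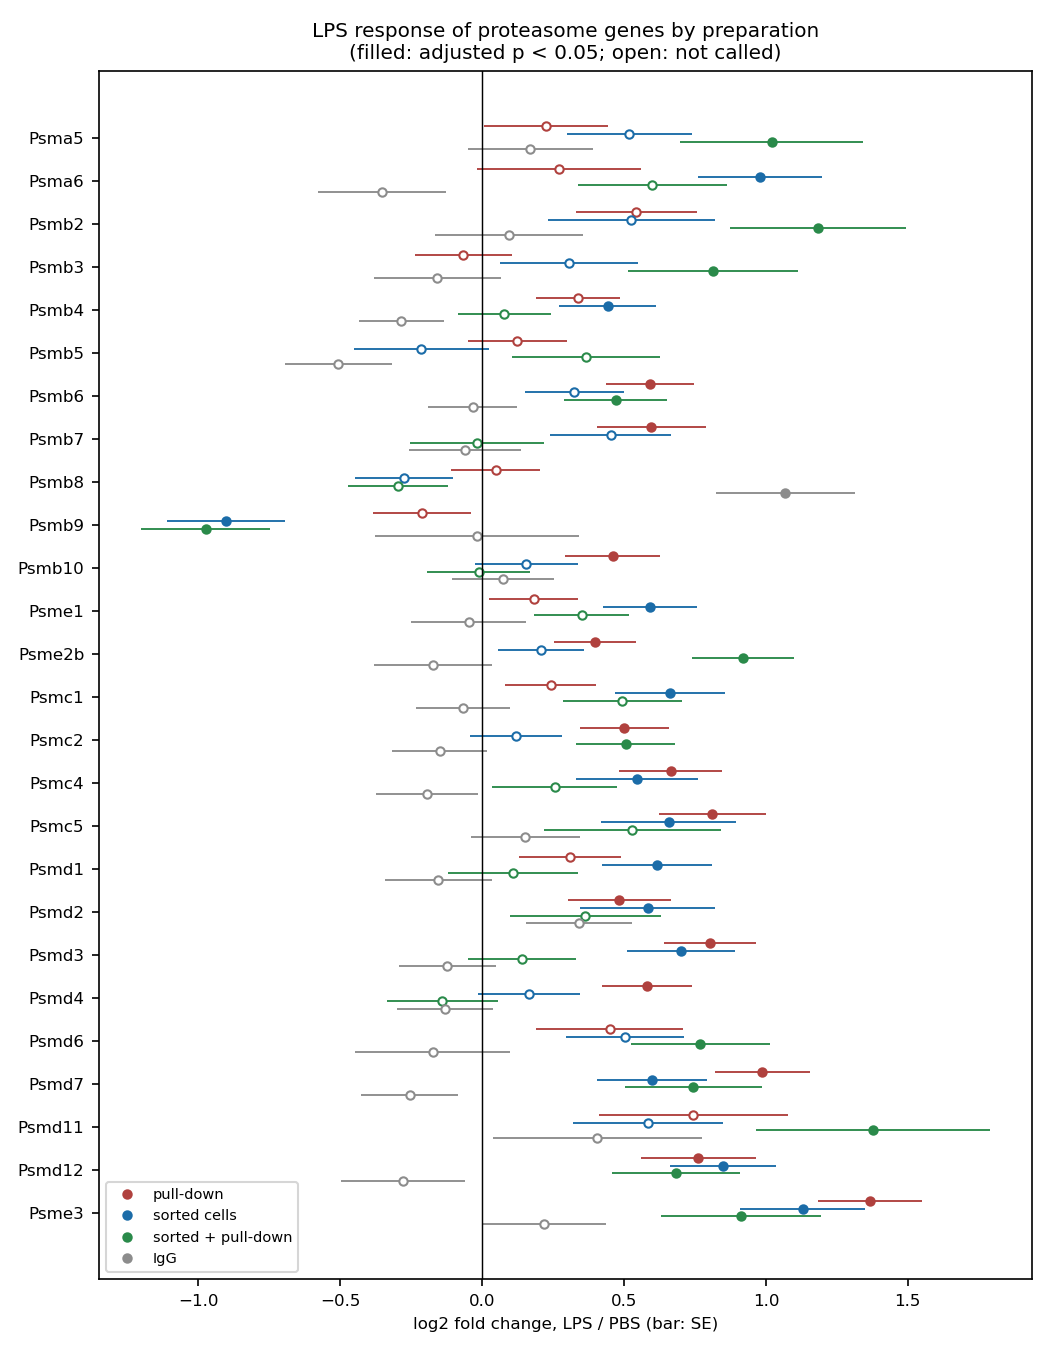
Log2 fold change of LPS over PBS with SE for the named members in pull-down, sorted cells, pull-down from sorted cells and IgG, with filled points for an adjusted p under 0.05 and open points otherwise. Psme3, Psmd7 and Psmd12 are filled and above 0 in the 3 microglial preparations, and Psmb9 is filled and below 0 in sorted cells and their pull-down.

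Standard catalytic genes rose in part. Psmb6 stood at 506.9, 533.5 and 479.2 CPM in the PBS pull-downs and 715.6, 852, 733.8 and 750.9 CPM after LPS (0.59 ± 0.15, adjusted p = 0.00202), and Psmb7 at 48.9, 43.4 and 34.4 CPM and 62.6, 72.0, 66.5 and 52.9 CPM (0.60 ± 0.19, adjusted p = 0.0144), both without overlap. Psmb7 was lost with total-count scaling (0.44, adjusted p = 0.0776), without LPS pull-down replicate 2 (adjusted p = 0.0518) and without PBS pull-down replicate 3 (adjusted p = 0.12). Psmb5 was not called in the pull-down (0.12). Psmb6 was also called in the pull-down from sorted cells (0.47, adjusted p = 0.0491), and lost with other scalings, without single libraries and with a block on the replicate number (adjusted p = 0.0926).

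Psmb8, in contrast, was called in neither the pull-down nor sorted cells. It stood at 503.3, 538.7 and 454.7 CPM in the PBS pull-downs and 491.6, 601.1, 498.3 and 470 CPM after LPS, which overlapped (0.05), and at 272.3, 290.7 and 231.3 CPM and 218.9, 236.6, 199.8 and 222.2 CPM in sorted cells (-0.28, not called). Psmb9 fell in sorted cells, from 110.9, 134.3 and 117.7 CPM to 54.7, 58.3, 67.3 and 73.7 CPM, without overlap (-0.90 ± 0.21, adjusted p = 0.000321). In pull-downs from sorted cells it fell from 185.7, 144.3 and 172 CPM to 85.4, 87.5, 30.8 and 110.9 CPM (-0.97 ± 0.23, adjusted p = 0.00059), or -0.89 (adjusted p = 0.00141) without LPS replicate 3, whose value rests on 5 reads. In the whole-brain pull-down Psmb9 stood at 169.5, 189.2 and 144.4 CPM and 144, 160.8, 153.4 and 118.8 CPM, overlapped and was not called (-0.21).

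The difference between the Psmb9 responses of sorted cells and pull-down was -0.69 ± 0.27 with an adjusted p of 0.164, so the fall was not shown to differ between the preparations. None of the 47 members differed in that test by edgeR, 1 had an unadjusted p under 0.05 (Psmb9), DESeq2 called none, and 3.21% of all genes were called (0.795% higher and 2.41% lower). Psmb10 rose in the pull-down from 309, 306.8 and 310.3 CPM to 409.9, 439.7, 433.8 and 414.9 CPM (0.46 ± 0.17, adjusted p = 0.0332), a call lost with DESeq2 size factors (0.35, adjusted p = 0.0982) and when any 1 of 5 libraries was left out, and was not called in sorted cells (0.16) or their pull-down (-0.01). Psme1 rose in sorted cells from 294.3, 243.6 and 269.1 CPM to 349.9, 381.6, 452.1 and 436 CPM (0.59 ± 0.17, adjusted p = 0.00307), without overlap, and not in the pull-down (0.18, not called). Psme2b rose in the pull-down from sorted cells from 136.8, 136.9 and 150.1 CPM to 254.3, 288.1, 264.6 and 271.9 CPM (0.92 ± 0.18, adjusted p = 4.22e-05), and in the whole-brain pull-down by 0.40 ± 0.15 (adjusted p = 0.0333), lost with DESeq2 size factors (0.29, adjusted p = 0.121) and when any 1 of 4 libraries was left out.

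The immunoproteasome share of catalytic reads was lower after LPS in each microglial preparation. It was 60.46, 60.62 and 59.98% in the PBS pull-downs and 54.73, 53.97, 54.31 and 52.57% after LPS. In sorted cells it was 71.21, 68.67 and 68.93% and 61.5, 59.18, 61.77 and 65.85%, and in pull-downs from sorted cells 74.13, 73.45 and 74.56% and 70.63, 62.92, 57.97 and 64.46%. In none of the 3 did the groups overlap. In IgG the share was 26.9 ± 5.85% (SD, n = 3) under PBS and 31.9 ± 5.61% (SD, n = 4) after LPS, with overlap. All members together took 0.561 ± 0.0267% of reads in the PBS pull-downs and 0.632 ± 0.00891% after LPS, and 0.430 ± 0.0166% and 0.490 ± 0.0307% in sorted cells. The microglial markers summed to 53250 to 53970 CPM in PBS sorted cells and 43740 to 46110 CPM after LPS, and their part in the fall of Psmb9 was not tested.

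The IgG libraries gave the background of the LPS response in RNA that the control antibody brought down from brain homogenate. The LPS experiment held no input libraries. Psmb8 was the 1 member of 47 called there, at 14.9, 23.1 and 20.2 CPM under PBS and 45.4, 43.3, 42.3 and 29.6 CPM after LPS (1.07 ± 0.24, adjusted p = 0.00732), with 1.15% of all genes called. The groups did not overlap, and the call was lost without PBS IgG replicate 1 (0.91, adjusted p = 0.128), after which edgeR called no member. The Psmb8 response in the pull-down was smaller than that in IgG (-1.02 ± 0.29, adjusted p = 0.0157), also lost without that library (-0.86, adjusted p = 0.103). Beside Psme3, the members whose rise in the pull-down exceeded that in IgG were led by Psmd7 (1.24 ± 0.24), Psmd12 (1.04 ± 0.30, lost without PBS IgG replicate 3 at 0.79 and adjusted p = 0.122, PBS pull-down replicate 1 at 0.0584 or replicate 3 at 0.0561), Psmd3 (0.93 ± 0.24) and the ATPase Psmc4 (0.86 ± 0.26, lost with other scalings), 7 in all and 1 lower, with 8.58% of all genes called (5.6% higher and 2.98% lower). Without PBS IgG replicate 1 or PBS pull-down replicate 1 the test called 4 members, and 5 without PBS pull-down replicate 3. Ly6g was at 0 in the IgG libraries, and the neutrophil and monocyte markers there summed to 9.46 to 15.5 CPM under PBS and 4.96 to 19.1 CPM after LPS.

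The regulators and partners of the proteasome rose in part after LPS. In the pull-down 6 of 22 proteasome-related genes without a Psm symbol rose (27.3%), in sorted cells 10 rose (45.5%) and 1 fell, in pull-downs from sorted cells 5 rose (22.7%) and 1 fell, and in IgG edgeR called none. Of all genes 15.5%, 17%, 12.7% and 1% rose in these 4. Nfe2l1 rose by 0.44 ± 0.15 (adjusted p = 0.0246) in the pull-down, 1.19 ± 0.18 in sorted cells and 0.74 ± 0.20 in their pull-down. Usp14 rose by 1.10 ± 0.23 in sorted cells, and Pomp was not called in the pull-down (-0.01). Of 12 genes of the MHC class I route, 3 rose in the pull-down, 3 in sorted cells, 2 in their pull-down and 1 in IgG. Among them Tap1 rose by 1.30 ± 0.18 in the pull-down, by 0.82 ± 0.19 in sorted cells and by 1.45 ± 0.36 in IgG. Psmb9, whose promoter window overlaps that of Tap1, was called in none of these in the same direction. Irf1 rose by 0.70 ± 0.17 in the pull-down and by 0.65 in sorted cells. Of 13 interferon and immunoproteasome regulators, 7 rose in the pull-down, 6 in sorted cells, 7 in their pull-down, where 1 fell, and 2 in IgG.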

How the data were processed

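RNA sequencing libraries (67, in 3 experiments of mouse brain) were analysed from the authors' deposited counts, raw whole-number reads per gene over exons, which were used as given. Per the submitters' processing notes, bcl2fastq, HOMER, HISAT version 0.1.5 and the build mm9 were used. Neither annotation nor strandedness nor duplicate handling is given in the sources used here, so reads of overlapping genes (Psme1 with Emc9, Psme4 with Erlec1, Psmf1 with Tmem74b and others) may be shared. Each experiment was fitted with all its groups in edgeR version 4.0.16 under R version 4.3.3, with filterByExpr at a minimum count of 10, TMM scaling and the robust quasi-likelihood F test. Adjusted p values are Benjamini-Hochberg over all genes tested. Alternatives were DESeq2 version 1.42.0, other scalings, no filter, fits on the compared groups alone, a block on the replicate number, and leaving out each library.

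The members, gene lists, tests and named genes were chosen with earlier results of these data known. Members named were Psmb5 to Psmb10, Psme1, Psme2 and, per comparison, the 5 largest and 5 smallest changes among called members, with a fixed set of partner genes. Psmd7 and Psmd12 in some LPS comparisons, Psmd3 and Psmd4 without tamoxifen, Psma1 and Psmd14 against IgG of the constitutive driver, and Psmd8, Psmg3, Psmg4 and Psmd14 among the calls shared by the experiments were named after their values were seen. A summed count of Psme2 and Psme2b, and the tests of pull-down against IgG for the constitutive driver and without tamoxifen, were added after seeing the data. On simulated data with known changes, the edgeR test recovered 76% of changes of 1 on the log2 scale and 98% of changes of 2 between the constitutive and inducible pull-downs (11868 genes), 91% and 100% between digested sorted cells and pull-down (11529 genes), and 97% and 99% for LPS in the pull-down (11444 genes). At each size 100 genes were changed. The changed genes were drawn only from those above the median level, so recovery of members with few reads was not tested. Recovery where most genes differ was not tested. Replicate pairs (78) were checked, and none held identical values. Per the design text one mouse supplied both sorted cells and pull-down, but the labels do not say that a replicate number marks the mouse, and deviations of same-numbered libraries did not all correlate above 0.1. The number was therefore a block only as an alternative, and p values treat libraries of different preparations as independent. Depth limits genes with few reads, and intervals cover counting error only. Sequences are from RefSeq, build GRCm38.p6, matched by symbol for 42 members.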

Additional observations from a re-analysis of the deposited data

Results flagged for a closer look

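Several members differed between the drivers by a test of the difference itself, the pull-down over input of CX3CR1Cre mice minus that of CX3CR1CreER mice with tamoxifen. Since the CX3CR1Cre mice had no tamoxifen, driver and tamoxifen cannot be told apart in that test. The log2 differences were -3.84 for Psmb8, -3.83 for Psmb9, -1.89 for Psme1, -1.13 for Psmb10 and -0.87 for Psme2b, all lower with the constitutive driver. They were 4.11 for Psma4 (fitted, on 3 reads in the inducible pull-downs), 3.77 for Psmc6, 1.92 for Psma1, 1.81 for Psmb5, 1.72 for Psmd11 and 1.17 for Psmb7. The call of Psmd11 was lost with the DESeq2 test (1.57, adjusted p = 0.0563) and without any 1 of 4 libraries (1.38, adjusted p = 0.0787, without CX3CR1Cre pull-down replicate 2), and that of Psmb7 without CX3CR1Cre input replicate 2 (0.84, adjusted p = 0.0673). The immunoproteasome genes and these standard subunits therefore differed in opposite directions.

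The LPS change in the pull-down differed from that in IgG by 1.24 for Psmd7, 1.15 for Psme3, 1.04 for Psmd12 (lost without any 1 of 3 libraries), 0.93 for Psmd3 and 0.86 for Psmc4, and by -1.02 for Psmb8, whose call was lost without PBS IgG replicate 1 (-0.86, adjusted p = 0.103). The call of Psmc4 was lost with other scalings and without single libraries.

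Values of Psmb5 to Psmb10, Psme1 and Psme2b were checked in the groups of 4 libraries. There 1 value stood apart from the others, Psme2b in LPS IgG replicate 2 at 33.7 CPM, where the other 3 libraries lay between 27.3 and 28.4 CPM. In all 56 sets of 4 values were looked at, and chance gives about 5% of them, so 1 does not exceed that share.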

How the results depend on the processing

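Of 279 recomputed counts of called members, 261 stayed within 1.5 times the reported count. Of 217 called changes of single members, 163 kept call and direction under all alternatives run. The difference of Psmb6 between pull-down and IgG in the digest experiment, not called as reported, became 0.44 (adjusted p = 0.0085) when only the compared groups were fitted. Under other scalings the excess of the LPS response in the pull-down over IgG had 5 members with DESeq2 size factors and 5 with total counts against 8, and without the low-count filter the LPS response in pull-downs from sorted cells had 7 against 12. Leaving out 1 library gave 1 to 4 members for the no-tamoxifen pull-down over input, 0 to 5 against 7 for it over IgG, 15 to 23 for the drivers relative to input, 7 to 15 for LPS in sorted cells, 4 to 13 for LPS in pull-downs from sorted cells, 0 to 1 for LPS in IgG and 4 to 9 for the excess over IgG. The median of all genes moved from -0.28 to -0.75 with total counts in the inducible pull-down over input, and from -0.02 to -0.53 with DESeq2 size factors in the PBS pull-down over IgG. The cause of these changes was not tested.

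With the replicate number as a block, 33 members were called for the inducible pull-down over input, 12 for LPS in the pull-down, 13 in sorted cells and 11 in pull-downs from sorted cells, and no count moved by over 1.5 times. Of the changes named, the block ended the calls of Psmb9, Psmc6 and, against IgG, Psma1 (adjusted p = 0.0612) without tamoxifen and of Psmb6 after LPS in pull-downs from sorted cells, and brought in Psmb5 without tamoxifen (1.02, adjusted p = 0.04), the excess of Psmb6 over IgG after LPS (0.63, adjusted p = 0.0448) and Psmb9 in pull-downs from sorted cells over sorted cells under PBS (0.52, adjusted p = 0.0414). The labels do not say that the numbers mark the mouse.

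Without Psmb10 and Psmb7 the immunoproteasome share was lower in all groups. It was 3.45% in inputs, 5.78% in IgG and 51.99% in pull-downs of the inducible driver, 4.22%, 6.48% and 18.33% without tamoxifen, and 3.73%, 4.45% and 4.99% with the constitutive driver. In the digest experiment it was 5.18% in IgG, 59.12% in the pull-down, 75.23% with and 71.37% without the digest. Under PBS it was 7.24% in IgG, 52.65% in pull-down, 65.48% in sorted cells and 69.38% in their pull-down, and after LPS 12.46%, 43.25%, 54.65% and 53.11%. In this form the constitutive pull-down no longer lay below its input. A share weighted by gene length was not run, since the tables give no lengths. Depth limits Psma4, Psmc6, Psmb9 and Psmd11 most, which had few reads in some libraries.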
